A study of Mus musculus with 10 samples.

Results

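The 5 control libraries of the anterior fontanelle (AF), from a series of 10 bulk RNA-seq libraries, were described on their own, without a comparison of genotypes. They were chosen by their title, which labels them WT and numbers them as replicates 1 to 5. The study calls its controls littermates, and which alleles these embryos carried was not given in the sources used here. The other 5 libraries come from embryos in which *Fgfr2* was deleted in neural crest cells, and they enter no value below. The tissue was the AF region of mouse embryos at E18.5, shortly before birth. The pieces held suture mesenchyme together with the adjoining bone, and the overlying skin and underlying brain had been dissected away. Total RNA was made into stranded libraries and read as single reads of 50 bases. The study counts each library as a replicate, and the number of litters was not given in the sources used here.

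At birth the bones of the skull roof are still separate, and the widest gap between them, the AF, is bridged by a fibrous membrane. The bones grow towards each other by intramembranous ossification, in which mesenchymal cells become osteoblasts without passing through cartilage. Osteoblasts deposit type I collagen and the proteins that bind mineral, osteoclasts resorb bone, and the midline mesenchyme holds tendon-like and stem-like cells. Bulk RNA-seq adds the transcripts of all these cells, and fewer cells of a type and less RNA per cell cannot be told apart in such data.

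The libraries held between 21814166 and 28515403 estimated counts. Rows of ribosomal RNA took 26.1%, 28.2%, 32.2%, 26.1% and 20.9% of them in replicates 1 to 5 and were left out, which left 16809501 to 20480153 counts per library. Levels are given as counts per 1000000 of these remaining counts (CPM), scaled between libraries by edgeR's TMM factors, which lay between 0.985 and 1.02. Wherever 5 values are listed they stand in the order of replicates 1 to 5, and means are given with their SD over the 5 libraries. The widest exact (Clopper-Pearson) 95% binomial interval of any share of counts printed for 1 library was 0.0368 percentage points wide. Such intervals cover counting error only, since the reads carried no molecular identifiers.

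The 5 genes used to check the tissue were present in every library. *Col1a1* (chr11:94936224-94953042 in mm10), which encodes the α1 chain of type I collagen, stood at 97669.5, 81782, 92017, 93829 and 93351 CPM. *Sp7* (chr15:102356606-102367182), the transcription factor osterix of committed osteoblasts, stood at 297, 285, 306, 326 and 280.2 CPM. *Ibsp* (chr5:104299171-104311469), a mineral-binding matrix protein of osteoblasts, stood at 2606, 2242, 2073, 2204 and 2678 CPM. These 3 genes mark bone, and their highest and lowest libraries differed by 1.19-fold, 1.16-fold and 1.29-fold. *Tnmd* (chrX:133850980-133865577), which encodes tenomodulin of tendon-like cells, stood at 69.5, 46.6, 59.8, 62.7 and 66.5 CPM. *Matn4* (chr2:164389393-164405160), a matrilin of the extracellular matrix, stood at 130.2, 137, 106, 109 and 102 CPM. Replicate 2 was the lowest of the 5 for *Col1a1* and *Tnmd* and the highest for *Matn4*. Bone and connective tissue markers were therefore both measured in all 5 libraries, and none was absent.

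A small number of genes took a large share of the counts, and the leading ones were genes of the bone matrix. *Col1a1* and its partner chain *Col1a2* together took 14.4% ± 0.706 of all counts. The 10 genes with the highest mean CPM took 21.8% ± 0.803, the 100 highest took 36.2% ± 1.05 and the 1000 highest 60.4% ± 0.75. Between 425 and 505 genes were enough to hold 50% of the counts of a library, and the highest number belonged to replicate 2. Of the 23074 genes listed, 14052 (60.9%) reached 1 CPM in every control library, and 12 had no count in any of them.

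By mean CPM, a scale on which long transcripts collect more reads, the order began with *Col1a1* (91729.7 ± 5945 CPM), *Col1a2* (51881 ± 3110.1), *Lars2* (14059.9 ± 4542), *Sparc* (11694 ± 1046) and *mt-Co1* (10434 ± 1525). It went on with *H19* (9343 ± 590.3), *Col3a1* (9032 ± 717), *Igf2* (7219 ± 349), *Eef1a1* (6453 ± 225) and *Spp1* (6253 ± 918). *Sparc* encodes osteonectin, which binds collagen and calcium, and *Spp1* encodes osteopontin. *H19* is an imprinted non-coding RNA next to the growth factor gene *Igf2*, and *Eef1a1* is a translation elongation factor. The ranges of the 5 libraries did not overlap between *Col1a1* and *Col1a2*, nor between *Col1a2* and any gene after them. From *Lars2* to *Spp1* the ranges of neighbours in this order overlapped, with the exception of *Col3a1* (lowest library 7866 CPM) and *Igf2* (highest library 7488 CPM). The genes at ranks 11 to 20 were *mt-Cytb*, *Mir6236*, *mt-Nd4*, *Fn1*, *Col12a1*, *Igfbp5*, *Gm10925*, *Col5a1*, *mt-Atp6* and *Col5a2*, with means between 3113 and 4581 CPM.

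**Figure D1:**
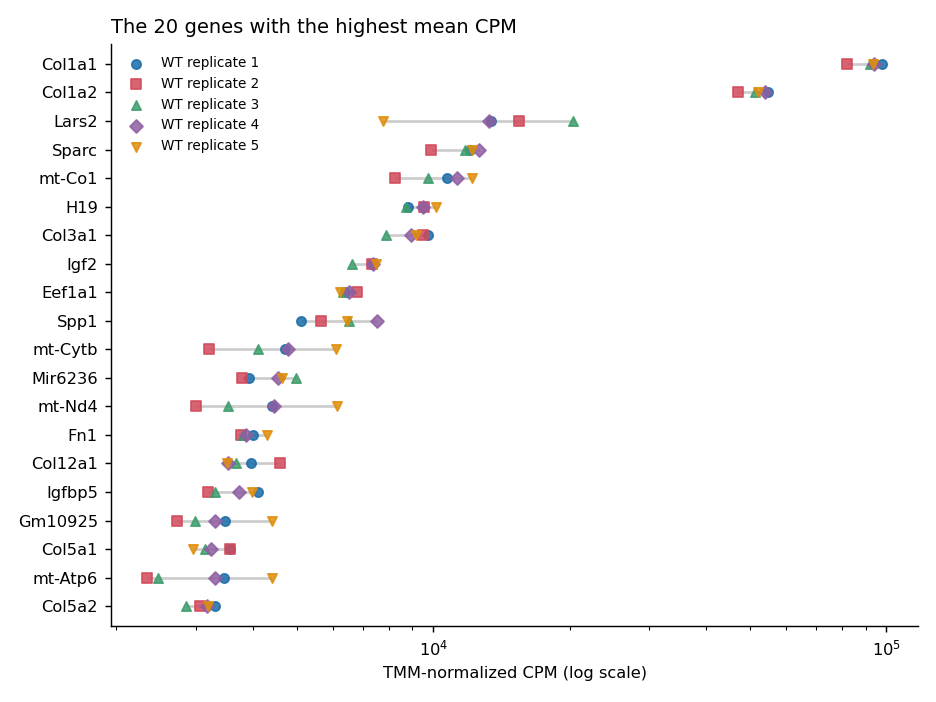
TMM-normalized CPM (log scale) of the 20 genes with the highest mean, 1 point per WT library and a grey line over their range. Col1a1 and Col1a2 stand apart from the rest, and Lars2 has the widest range of the 20, from 7748 to 20364 CPM.

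Where genes are said below to lead a list or class, this is by CPM, their share of reads. Levels of different genes can be compared only per length, and dividing by the merged exon length changed the order: 12 of the 20 genes stayed among the 20 highest. Among nuclear protein-coding genes, *Col1a1* came first with 13977 ± 906 CPM per kb, followed by *Col1a2* (4175 ± 250.3), *Spp1* (3794 ± 557), *Sparc* (3087 ± 276) and *Eef1a1* (2588 ± 90.2). *H19* reached 3798 ± 240.0 CPM per kb. The long matrix genes ranked lower on this scale: *Col3a1* stood at 920.1 ± 73.1 CPM per kb (rank 41), *Fn1* at 338 ± 18.3 (rank 106) and *Col12a1* at 253 ± 29.7 (rank 141). The 20 highest per length also held 8 mitochondrially encoded mRNAs, 4 nuclear copies of them and the short rows *Mir6236* and *Gm24270*.

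*Lars2*, which encodes the mitochondrial leucyl-tRNA synthetase, was the third in the order by CPM and had an uneven level. It stood at 13439, 15456, 20364, 13293 and 7748 CPM. Replicate 3 was highest and replicate 5 lowest, and the ribosomal RNA share given above was highest and lowest in the same libraries. *Gm24270*, a short row of the class miRNA, was likewise highest in replicate 3 and lowest in replicate 5, at 1586, 1694, 2385, 1744 and 1418 CPM. *Mir6236* stood at 3917, 3784, 4971, 4547 and 4635 CPM, highest in replicate 3 and lowest in replicate 2. Per 1000 counts of CT010467.1, the row that holds nearly all ribosomal RNA counts, *Gm24270* had 4.43 to 5.33 counts, *Mir6236* 9.89 to 17.4 and *Lars2* 29.1 to 43.8. *Lars2* and *Mir6236* shared 0.2% and 0% of the 50-base stretches of their annotated transcripts with any other gene, and no exact match with CT010467.1 was found there. Only exact matches among annotated transcripts were counted, so similar but not identical, or unannotated, ribosomal sequence could not be seen. All stretches of *Gm24270* occur in Gm23935 and Gm24245, so its counts cannot be assigned to it alone. The part of ribosomal RNA in these 3 rows was not tested. The mature miRNA that gives *Mir6236* its name is shown because this row ranked first per length. It lies at chr9:110281353-110281371 (GRCm38.p6, plus strand, RefSeq), with its seed, bases 2 to 8, in capitals.
Mir6236: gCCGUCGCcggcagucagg
The libraries were made from total RNA and not from a small RNA preparation, so counts in this row do not measure a mature miRNA of this length on its own.

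The 13 mRNAs encoded by the mitochondrial genome, which specify subunits of the respiratory chain, took 3.65, 2.71, 3.13, 3.71 and 4.6% of counts. All 13 were highest in replicate 5 and 12 were lowest in replicate 2. The median CV, the SD divided by the mean, of these genes was 23.5%. *mt-Co1* stood at 10752, 8223, 9718, 11299 and 12179.7 CPM and *mt-Nd4* at 4406, 2988, 3525, 4458 and 6137 CPM. Nuclear copies of mitochondrial genes, listed as unprocessed pseudogenes, carried large counts as well: *Gm10925* stood at 3472, 2721, 2987, 3302 and 4404 CPM and its source gene *mt-Atp6* at 3462, 2339, 2473, 3304 and 4409 CPM. All 50-base stretches of *Gm10925* occur in *mt-Atp6*, and those of *Gm28437* in *mt-Co3*. *Gm28437* and *mt-Co3* had almost equal values, with means of 2317 and 2317 CPM. A read of 50 bases cannot separate such pairs, and how the counts were divided between them was not given in the sources used here, so the level of each member is uncertain.

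By transcript class as the table gives it, protein-coding genes held 94.2% to 94.7% of the counts in the 5 libraries. The class protein_coding had 16707 rows, of which 13094 reached 1 CPM in every library. Processed pseudogenes followed with 1.62% ± 0.0492, spread over 548 rows with a mean of at least 1 CPM. They were led by copies of ribosomal and housekeeping genes such as *Rpl3-ps1* (701 ± 35.2 CPM), *Tpt1-ps3* (625 ± 36) and *Gm12918* (492 ± 62.5). Shared sequence was not checked for these rows, so their levels are uncertain. All 50-base stretches of *Rpl30-ps8*, the row of this class that was checked, occur in other genes. Long intergenic RNAs took 1.31% ± 0.0696, and *H19* alone made up 71.1% of that class, followed by the nuclear RNA *Malat1* (1503 ± 239 CPM) and *2900097C17Rik* (385 ± 8.73). Unprocessed pseudogenes took 1.09% ± 0.148, of which the mitochondrial copies *Gm10925*, *Gm28661* and *Gm28437* held 77%. This class was highest in replicate 5 and lowest in replicate 2, as were the mitochondrial mRNAs. The class miRNA took 0.619% ± 0.0823, of which *Mir6236* held 70.6%.

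Transcribed processed pseudogenes took 0.385% ± 0.0182 and were led by *Gm15500* (1043 ± 41 CPM), *Rps7-ps3* and *Gm10275*, whose shared sequence was not checked either. Processed transcripts took 0.157% ± 0.00274, led by the snoRNA host gene *Gas5* (223 ± 7.83 CPM), *Rian* from the imprinted *Dlk1* and *Meg3* locus (135 ± 20.7) and *AI506816*. Antisense RNAs took 0.0901% ± 0.00618, with the largest shares of reads in the imprinted *Kcnq1ot1* (80.6 ± 8.22 CPM), a very long transcript, and *Gm15564*. Per length *Kcnq1ot1* stood at 0.866 ± 0.0882 and *Gm15564* at 88.1 ± 58.6 CPM per kb. *Gm15564* stood at 57.4, 100.1, 140.0, 47.4 and 16.9 CPM, highest in replicate 3 and lowest in replicate 5 like *Lars2*. In the class TEC, transcripts that await experimental proof, *Gm37194* held 58.6% of the counts at 794, 816, 989, 904 and 469.6 CPM, and it too was highest in replicate 3 and lowest in replicate 5. The signal recognition particle RNAs *Rn7s1* and *Rn7s2* had the same value in every library, 35.1, 20.3, 20.5, 85.2 and 71.2 CPM, and cannot be told apart. Small nucleolar and small nuclear RNAs took 0.000827% and 0.00124% of counts, which describes this preparation and not their abundance in the tissue.

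**Figure D2:**
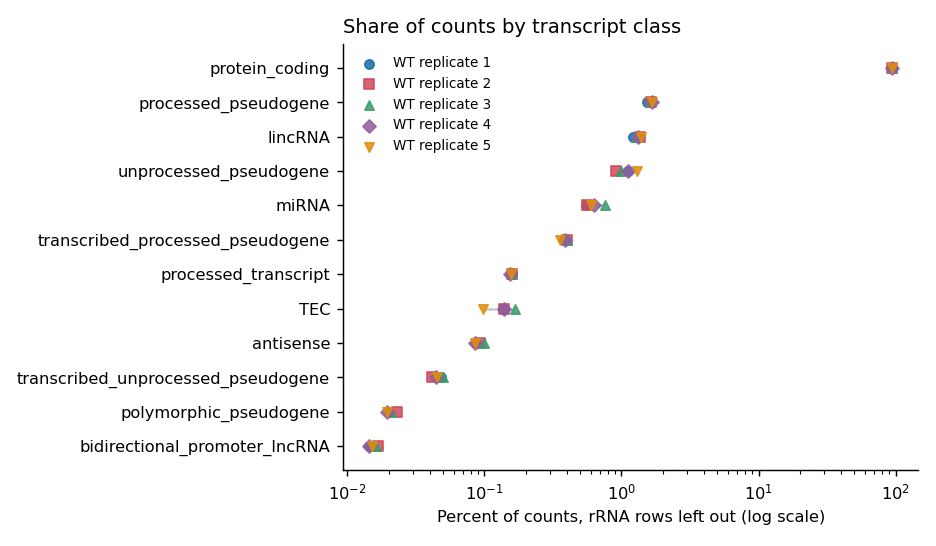
Percent of counts outside ribosomal RNA (log scale) in the 12 transcript classes with the largest share, 1 point per WT library. Protein-coding genes lie between 94.2% and 94.7%, and the class TEC runs from 0.098% in replicate 5 to 0.167% in replicate 3.

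Genes of the extracellular matrix filled a large part of these libraries. The 44 collagen genes took 17.8% ± 0.649 of counts, from 16.9% in replicate 2 to 18.7% in replicate 1, against 3.06% ± 0.0972 for the 84 genes of cytosolic ribosomal proteins. A further 0.847% ± 0.0142 lay in 167 rows of ribosomal protein pseudogenes. All 18 fibrillar and associated collagens on the list reached 1 CPM in every library, as did 60.9% of all genes. Their median CV was 8.44% at a median level of 1417 CPM, beside 9.29% for all genes from 1000 to 10000 CPM. The 17 matricellular and elastic matrix genes summed to 26839.8, 24897, 25004, 26834 and 26302 CPM, with *Sparc*, fibronectin (*Fn1*, 3946 ± 214 CPM) and tenascin C (*Tnc*, 1937 ± 152) as the most abundant. The 12 small leucine-rich proteoglycans, which organise collagen fibrils, were led in CPM by biglycan (*Bgn*, 2323 ± 276 CPM), decorin (*Dcn*, 708 ± 128) and lumican (*Lum*, 700.0 ± 62.3). Among these named genes alone the order per length differed, with *Bgn* at 381 ± 45.2, *Lum* at 286 ± 25.4 and *Dcn* at 121 ± 21.9 CPM per kb. Decorin was lowest in replicate 2 (521 CPM) and highest in replicate 5 (839 CPM).

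The 12 osteoblast transcription factors summed to 1280.1, 1287, 1329, 1334 and 1304 CPM, a CV of 1.85% for the sum, whereas the median CV of the single genes was 8.75%, beside 7.92% for all genes from 10 to 100 CPM. *Sp7* was followed by *Runx2* (193 ± 21.5 CPM), the factor that commits cells to the osteoblast lineage. The 18 bone matrix and mineralization genes summed to 11943, 11887, 13069, 14606 and 13303 CPM, lowest in replicate 2 and highest in replicate 4. *Spp1*, the most abundant of them, stood at 5099, 5663, 6532, 7506 and 6466 CPM. The 7 osteocyte genes, which mark osteoblasts embedded in bone, summed to 1158, 1087, 1459.6, 1672 and 1364 CPM and were also lowest in replicate 2 and highest in replicate 4. The lists share *Dmp1*, *Phex* and *Mepe*, so their sums are not independent. *Dmp1*, a phosphoprotein of osteocytes, stood at 564, 633, 803, 869 and 754 CPM and *Phex*, an endopeptidase that acts on phosphate balance, at 304, 243, 323, 402 and 308 CPM. *Dkk1*, a secreted WNT inhibitor, stood at 94.7, 87, 129, 138 and 109 CPM. *Sost*, which encodes sclerostin, likewise a WNT inhibitor, stood at 102, 55.3, 96.7, 147 and 99.4 CPM. Of the 7 genes on the list, 6 were highest in replicate 4, as were 17.7% of all genes with a mean of at least 1 CPM. The exception was the osteocyte hormone gene *Fgf23*, which stayed below 1 CPM in every library. The osteocalcin genes *Bglap* and *Bglap2* stood at 319 ± 94.1 and 192 ± 56.5 CPM, and since 88.2% of the 50-base stretches of *Bglap2* occur in other genes, their split is uncertain.

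The promoters of *Ibsp*, *Spp1* and *Dmp1* are shown because these genes represent the bone matrix and osteocyte lists. Each is the 250 bases before the RefSeq start, 5′ to 3′ on the strand of the gene, in GRCm38.p6. They lie at chr5:104299037-104299286 for *Ibsp*, chr5:104434861-104435110 for *Spp1* and chr5:104202367-104202616 for *Dmp1*, all on the plus strand. Capitals mark the letters of a RUNX site (TGTGGT, or ACCACA on this strand), the E-box CAGCTG and TATAAA.
Ibsp: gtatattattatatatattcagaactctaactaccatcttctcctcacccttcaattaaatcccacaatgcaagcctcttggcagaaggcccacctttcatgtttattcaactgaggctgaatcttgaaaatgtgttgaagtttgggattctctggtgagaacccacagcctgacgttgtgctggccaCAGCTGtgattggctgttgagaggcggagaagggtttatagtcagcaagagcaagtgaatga
Spp1: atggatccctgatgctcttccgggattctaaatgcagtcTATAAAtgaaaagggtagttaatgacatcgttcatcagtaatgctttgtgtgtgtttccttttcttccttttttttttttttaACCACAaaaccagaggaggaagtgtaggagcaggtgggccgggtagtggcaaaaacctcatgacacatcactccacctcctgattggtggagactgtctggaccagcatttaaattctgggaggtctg
Dmp1: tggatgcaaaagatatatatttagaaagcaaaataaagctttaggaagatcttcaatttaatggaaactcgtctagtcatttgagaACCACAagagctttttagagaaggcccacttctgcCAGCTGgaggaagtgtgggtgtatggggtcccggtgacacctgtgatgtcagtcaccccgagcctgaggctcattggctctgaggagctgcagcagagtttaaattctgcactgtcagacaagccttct
The letters TGTGGT on either strand were found in 6 of 15 matched promoters of the bone matrix list (*Spp1*, *Bglap*, *Dmp1*, *Mepe*, *Enpp1* and *Sgms2*). Over all 14180 promoters matched to the table, 11.2% held them. The letters were not particular to that list: they stood in 3 of 8 macrophage and 3 of 12 cartilage promoters. They stood in 1 of 13 promoters of fibrillar and associated collagens and in 1 of 6 of osteoblast transcription factors. In *Ibsp* the letters CAGCTG began 62 bases before the start, and such a match is a description and not a binding site.

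The connective tissue of the fontanelle was represented by 11 genes, all at 1 CPM or more in every library (as were 60.9% of all genes), with sums of 833, 898, 756, 758 and 765 CPM. *Prrx1*, a homeobox gene of skeletal mesenchyme, stood at 292, 304, 274, 271 and 302 CPM and *Six2*, a homeobox gene of cranial mesenchyme, at 117, 137, 97.9, 109 and 99.7 CPM. *Scx*, the transcription factor scleraxis of tendon cells, was low at 9.88, 10.8, 7.66, 7.27 and 5.93 CPM. Of the 11 genes, 7 were highest in replicate 2, as were 23% of all genes with a mean of at least 1 CPM, and the bone matrix and osteocyte sums were lowest in that library. Skeletal muscle genes, described below, were highest in replicate 2 too. So were 8 of 14 proliferation genes and 9 of the 15 cartilage genes with a mean of at least 1 CPM. The list of FGF receptors and WNT modulators held 11 genes, of which 10 had a mean of at least 1 CPM, with a median CV of 13.2%. The receptor gene *Fgfr1* stood at 449, 461, 439, 472 and 434 CPM. *Fgfr2*, the gene that the study deleted in its other embryos, stood at 278, 327, 242, 269 and 266 CPM and *Fgfr3* at 98.7, 94.4, 85.7, 84 and 68 CPM. Per length the means were 45.7 ± 1.57, 26.8 ± 3.01 and 12 ± 1.65 CPM per kb, so *Fgfr1* was the highest of these 3 receptors and *Fgfr3* the lowest. The ligand gene *Fgf18* stood at 7.98, 11.1, 6.26, 5.58 and 6.52 CPM. Among modulators of WNT signaling, *Sfrp2* stood at 652, 623, 545, 444 and 613 CPM and *Wif1*, which binds WNT ligands outside the cell, at 383, 322, 371, 382 and 332 CPM. The WNT target *Axin2* stood at 24.1, 28.6, 22.9, 17.2 and 24.5 CPM, *Lgr5* at 9.47, 12.7, 7.13, 9.97 and 5.7 CPM and the WNT-inactivating *Notum* at 8.03, 7.78, 6.2, 5.35 and 4.82 CPM.

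Neighbouring mesenchyme was measured as well. The 13 genes of the meninges summed to 715, 571, 621, 734 and 735 CPM, led by the chemokine gene *Cxcl12* (303 ± 42.5 CPM), *Foxc1* (103 ± 10.8) and *Zic1* (66 ± 11). The 9 genes of ectocranial mesenchyme and hypodermis had a median CV of 30.5%, higher than for all genes. Of these, *Igfbp3* stood at 497, 345, 372, 374 and 457 CPM, whereas *Pi16*, a marker of adventitial fibroblasts, stood at 27.2, 18.8, 5.85, 21.6 and 20.4 CPM and was lowest in replicate 3. The 16 cartilage genes summed to 2479, 2056, 2253, 2405 and 2016 CPM, but *Col11a2*, which bone also expresses, made up 73.3% of that sum. The defining cartilage genes *Acan* (aggrecan) and *Col2a1* (type II collagen) stood at 286 ± 30.7 and 77.9 ± 12.6 CPM. The 12 imprinted genes of fetal growth took 2.19% of CPM, and after *H19* and *Igf2* came *Grb10* (972 ± 89.7 CPM), an adaptor that restrains growth factor signaling. The 14 proliferation genes had a median CV of 8.29%, and 8 of them and their sum (660 CPM) were highest in replicate 2. Of all genes with a mean of at least 1 CPM, 23% were highest there. *Mki67* stood at 153, 168, 131, 157 and 176 CPM, highest in replicate 5. The 15 immediate-early and heat shock genes, which respond to handling of tissue, had a median CV of 17.9%, with *Jund* at 295, 234, 237, 243 and 182 CPM and *Egr1* at 46.4, 76.9, 71.6, 62.6 and 65.3 CPM.

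Cells of other lineages left clear traces. The 12 osteoclast genes summed to 3478, 4001, 4399, 5459.6 and 4704 CPM, highest in replicate 4 and lowest in replicate 1. *Mmp9*, a matrix protease, stood at 1841, 1993, 2187, 2913 and 2371 CPM, *Acp5*, the tartrate-resistant acid phosphatase, at 762, 1017, 1135, 1389 and 1108 CPM and *Ctsk*, the collagen-cleaving cathepsin K, at 364, 386, 408, 425 and 488 CPM. Macrophage genes, with *Csf1r* at 258, 277, 291, 349 and 323 CPM, were also highest in replicate 4. Endothelial genes such as *Cdh5* (269.8 ± 35.7 CPM), *Vwf* (249 ± 26.8) and *Pecam1* (160.3 ± 16.6) and the pericyte genes *Pdgfrb* (275 ± 10.8), *Notch3* (194 ± 8.93) and *Cspg4* (181 ± 20.5) were measured in every library. The sums of the endothelial and pericyte lists had CVs of 7.94% and 2.46%, beside 16.9% for the osteoclast list and 13.5% for the macrophage list. *Higd1b* of the pericyte list was below 1 CPM in every library.

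The sums of the erythroid and neuron lists had CVs of 43.1% and 31%. The 12 erythroid genes measured summed to 1419, 1816, 2852, 1379 and 3515 CPM, highest in replicates 3 and 5, and consisted mostly of the adult globins *Hbb-bs* (638, 837, 1329.5, 617 and 1510.2 CPM), *Hba-a1* and *Hba-a2*, whose copies share sequence. The embryonic globins *Hbb-y* and *Hba-x* and the erythroid factor *Gata1* stayed below 1 CPM in every library. The 9 neutrophil and marrow genes summed to 47.3, 71, 129, 109.5 and 116 CPM, with *S100a9* at 17, 24, 54.8, 36.6 and 41.1 CPM and *Ltf*, lactoferrin, at 3.4, 7.16, 14.1, 15.3 and 14.7 CPM, both lowest in replicate 1. The 15 neuron genes summed to 235, 325, 326, 135 and 311 CPM, lowest in replicate 4, where *Tubb3*, neuronal tubulin, stood at 22.5 CPM against 35.5 to 60.2 CPM in the others. The 8 genes of central glia summed to 54.1 to 112 CPM and the 9 Schwann cell genes to 49 to 86 CPM. Both sums were highest in replicate 5, but the members named here differed in their highest library. *Fabp7*, a fatty acid carrier of radial glia, stood at 15.5, 28.1, 15.4, 13.2 and 55.3 CPM and was highest in replicate 5, whereas the glutamate transporter gene *Slc1a3*, the largest member of the central list, stood at 42.1, 39.4, 33.3, 31.8 and 36.8 CPM and was highest in replicate 1. The myelin gene *Mbp* stood at 12.1, 16.5, 13.6, 13.2 and 14.7 CPM and was highest in replicate 2, and *Prx* and *S100b* were highest in replicate 1. *Fabp4*, a fatty acid carrier of adipocytes and endothelium, stood at 94.1 ± 10.5 CPM, whereas *Adipoq*, *Plin1* and *Ucp1*, which define adipocytes, were below 1 CPM in every library. Skin was removed in the dissection, and the 11 epidermis genes summed to 17.6 to 25 CPM, with *Krt14* and *Krtdap* below 1 CPM in every library and *Krt10* at 2.83 ± 0.196 CPM.

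**Figure D3:**
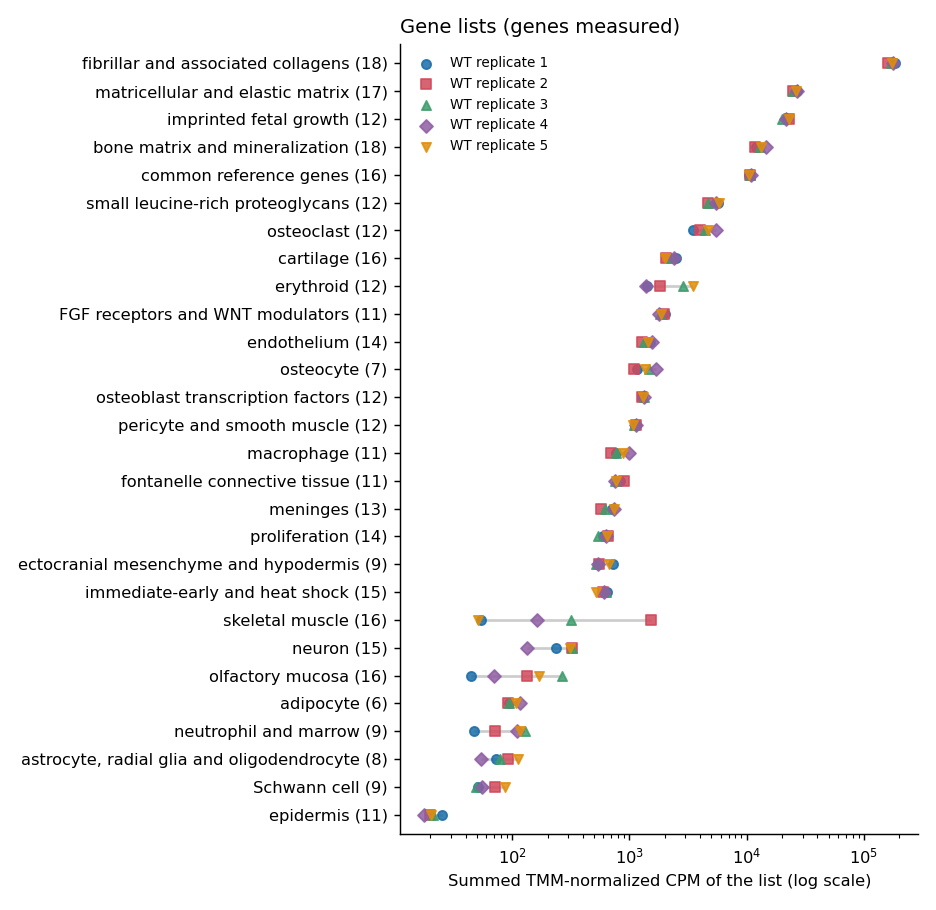
Summed TMM-normalized CPM (log scale) of each gene list, with the number of genes measured in brackets and 1 point per WT library. The sum of the osteoblast transcription factors has a CV of 1.85% and the erythroid sum one of 43.1%, and the skeletal muscle sum runs from 50.9 to 1534 CPM.

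The spread between the 5 libraries depended on abundance. Over the 15047 genes with a mean of at least 1 CPM, the median CV was 10.1% (quartiles 6.42% and 17.5%), and edgeR estimated a common biological coefficient of variation of 15.8%. The median CV was 20.5% for genes from 1 to 10 CPM, of which counting error alone gives 12.1%, and 7.92% from 10 to 100 CPM. It reached its lowest value of 6.4% from 100 to 1000 CPM and stood at 9.29% from 1000 to 10000 CPM, where counting error gives 0.543%. The most abundant genes were thus not the most even ones. Over the 10 pairs of libraries, Pearson's r of log2(CPM + 0.5) across genes, which are not independent replicates, lay between 0.977 and 0.985. The median squared difference between 2 libraries was 3.49 to 5.98 times that of counting error, so no pair looked like repeat deposits of 1 library. Replicates 2 and 5 formed the most distant pair by both measures.

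**Figure D4:**
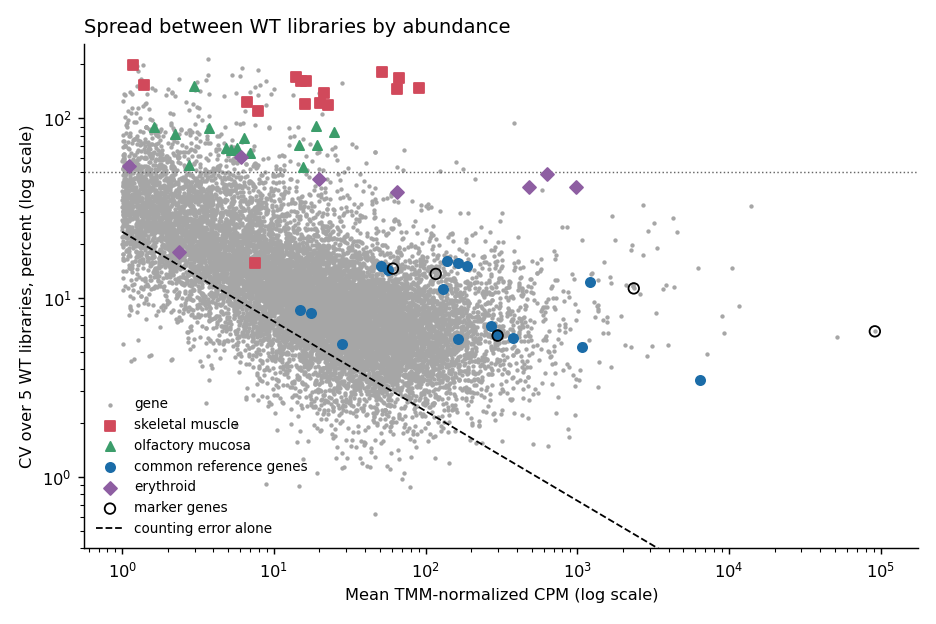
CV over the 5 WT libraries (log scale) against mean CPM (log scale) for each gene with a mean of at least 1 CPM, with chosen lists in color, the 5 marker genes as open circles, counting error as a dashed line and a CV of 50% as a dotted line. All skeletal muscle genes but Actn3 lie above the line at 50%, and the reference genes lie at or below a CV of 16%.

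A CV of at least 50% was found for 514 genes, 3.42% of those with a mean of at least 1 CPM. Of these, 450 had a mean from 1 to 10 CPM, a range that held 5176 of the 15047 genes, and 89 were pseudogenes, of which 673 were among the 15047. They were not shared evenly between libraries: 189 were highest in replicate 3, 170 in replicate 2, 89 in replicate 5, 35 in replicate 4 and 31 in replicate 1. As shares of the 514 genes these were 36.8%, 33.1%, 17.3%, 6.81% and 6.03%, beside 17.7%, 23%, 22.6%, 17.7% and 19% of all genes with a mean of at least 1 CPM. A level at least 3 times that of the next library was found for 53 genes in replicate 2 (13 of them on the skeletal muscle list), 7 in replicate 3, 4 in replicate 4, 9 in replicate 5 and 1 in replicate 1. The 1 gene in replicate 1 was Avp, which encodes the hormone vasopressin, at 15.0 CPM there and at most 2.46 CPM in the others.

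Skeletal muscle genes set replicate 2 apart. Of the 20 genes with the largest spread beyond counting error among those with a mean of at least 5 CPM, 16 were highest in replicate 2, and their spread lay between 138% and 189.6% over the 20. *Acta1*, the actin of skeletal muscle fibres, stood at 11.2, 327, 72.2, 34.1 and 8.4 CPM. *Myh8*, the perinatal myosin heavy chain, stood at 2.57, 263, 43.3, 21.1 and 2.64 CPM and *Myh3*, the embryonic one, at 1.8, 217, 24, 10.9 and 3.11 CPM. Replicate 2 was highest for each, replicates 3 and 4 followed, and replicates 1 and 5 were lowest. *Ttn*, the giant spring protein titin, stood at 8.54, 232, 53.7, 23.2 and 8.4 CPM, and *Actc1*, an actin of developing muscle, at 2.01, 107, 19.5, 11 and 2 CPM. Replicates 2, 3 and 4 held the highest values, in this order, for *Ckm*, *Mybpc1*, *Neb*, *Actn2*, *Atp2a1*, *Ryr1*, *Casq2*, *Myom2* and *Atp1b4* too, with CVs from 138% (*Ckm*) to 174% (*Myom2*). *Thbs4*, a thrombospondin of tendon and muscle, stood at 1.96, 34.8, 3.1, 3.32 and 1.41 CPM. Among these genes, *Mybpc1*, *Neb*, *Actn2*, *Atp2a1*, *Ryr1*, *Casq2*, *Myom2*, *Atp1b4* and *Thbs4* passed the minimum mean of 5 CPM only through replicate 2. The 16 genes of the skeletal muscle list summed to 54.3, 1534, 319, 163 and 50.9 CPM, and all 16 were highest in replicate 2. Of the 16, 15 had a CV of at least 50%, beside 3.42% of all genes, and the exception was *Actn3* (8.13, 9.22, 6.49, 7.55 and 6.4 CPM). All 16 passed the minimum mean of 1 CPM, but the regulators of muscle precursors *Myog* (0.154, 5.16, 1.05, 0.507 and 0.118 CPM) and *Pax7* (0.103, 5.35, 0.351, 0 and 0.0588 CPM) passed it only through replicate 2. The mean of the sum was 424 CPM over the 5 libraries and 146 CPM without replicate 2. Replicate 2 was also the library with the lowest collagen share, and the part of muscle tissue in that share was not tested.

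The promoters of *Acta1* and *Myh3* are shown because both genes were high in the same library and stand among the 20 with the largest spread. They are again the 250 bases before the RefSeq start in GRCm38.p6, at chr8:123894776-123895025 on the minus strand for *Acta1* and at chr11:67078050-67078299 on the plus strand for *Myh3*. Capitals mark a CArG box, which serum response factor binds, and the letters searched for above.
Acta1: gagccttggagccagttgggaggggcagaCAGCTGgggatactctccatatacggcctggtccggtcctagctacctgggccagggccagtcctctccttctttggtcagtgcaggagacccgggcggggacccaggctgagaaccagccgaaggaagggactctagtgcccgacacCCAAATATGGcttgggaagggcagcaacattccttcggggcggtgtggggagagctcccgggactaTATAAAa
Myh3: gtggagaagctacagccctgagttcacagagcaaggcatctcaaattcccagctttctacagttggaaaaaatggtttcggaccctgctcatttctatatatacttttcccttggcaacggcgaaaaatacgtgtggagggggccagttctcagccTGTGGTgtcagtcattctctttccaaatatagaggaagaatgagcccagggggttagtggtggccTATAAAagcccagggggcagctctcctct
In *Acta1* the CArG box began 73 bases before the start, and a CArG box on either strand was found in 1.21% of all matched promoters and in 1 of the 12 matched promoters of the muscle list. CAGCTG, the letters of an E-box that myogenic factors bind, was found in 5 of those 12 (*Acta1*, *Mylpf*, *Myl1*, *Ckm* and *Mybpc1*) and in 12.5% of all matched promoters. TATAAA between 40 and 20 bases before the start was found in *Myh3* and in 1.6% of all, while in *Acta1* it began 7 bases before the RefSeq start and so outside that window.

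A list of genes of another tissue was chosen after its values were seen, so its pattern is a description. It holds 16 genes of the olfactory mucosa, the sensory and secretory lining of the nasal cavity, and these summed to 44.3, 134, 267, 69.4 and 169 CPM. The sum was highest in replicate 3 and lowest in replicate 1, a 6.03-fold range. *Omp*, the olfactory marker protein of mature olfactory neurons, stood at 5.2, 16.1, 31.6, 7.38 and 13.3 CPM. *Cyp2a5*, a cytochrome P450 of the olfactory lining, stood at 5.92, 18.2, 48.1, 8.62 and 13.3 CPM and the glucuronosyltransferase gene *Ugt2a1* at 5.82, 23.7, 40.8, 10.4 and 16 CPM. Replicate 3 was the highest for each of these 3 genes and replicate 1 the lowest. *Bpifb9b* and *Bpifb9a*, secreted proteins of nasal glands, were instead highest in replicate 5, with *Bpifb9b* at 6.07, 13.6, 30.8, 15.7 and 59.1 CPM. Some genes of the list are also expressed in other epithelia or in neurons, and the source of these transcripts was not tested.

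**Figure D5:**
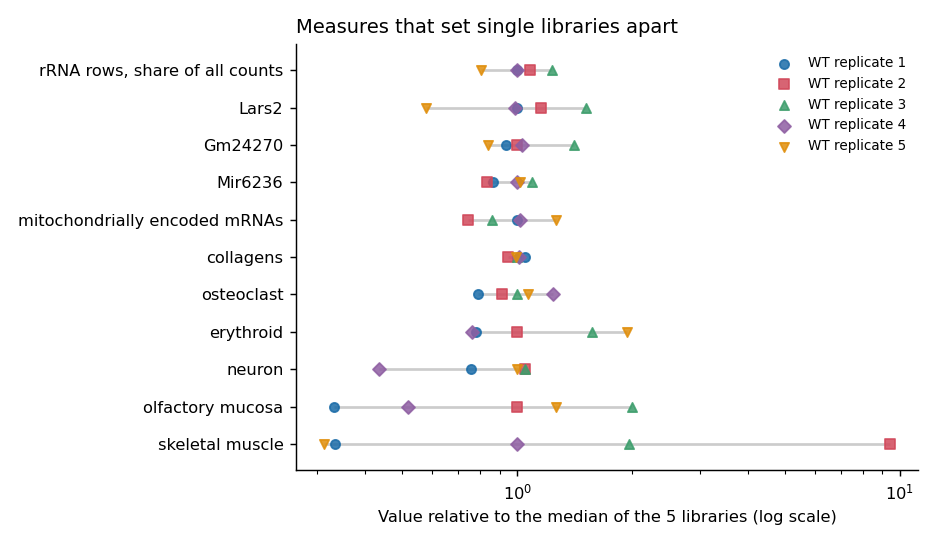
Values of 5 measures and 6 gene groups in each WT library, divided by the median of the 5 libraries (log scale). Replicate 2 is highest for skeletal muscle, replicate 3 for olfactory mucosa, ribosomal RNA and Lars2, and replicate 5 for mitochondrial mRNAs and erythroid genes, while the collagens stay close to 1.

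Of the remaining genes among the 20 with the largest spread, 3 were highest in replicate 5 and shared sequence with other genes. These 3 passed the minimum mean of 5 CPM only through that library. *Gm28439* stood at 1.7, 0.716, 0.0585, 2.87 and 33.8 CPM, and all of its 50-base stretches occur in *mt-Nd4*. *Rpl30-ps8*, a copy of a ribosomal protein gene, stood at 3.86, 1.1, 1.17, 8.17 and 35.8 CPM, and *Gm49450*, which shares 79.3% of its stretches with the α-tubulin gene *Tuba1a*, stood at 0.978, 1.1, 0.175, 1.46 and 26.9 CPM. The part of the division of reads among copies in these 3 genes was not tested. The last of the 20 was *Ddx3y*, a gene of the Y chromosome, at 55.1, 0, 44.6, 0 and 0.176 CPM, and the values of 0 allow up to 0.143 CPM in replicate 2 and 0.169 CPM in replicate 4 (3 counts). *Xist*, which is transcribed from the inactive X chromosome, was looked up after this and stood at 1.6, 784, 1.05, 504 and 630.3 CPM. Replicates 1 and 3 thus carried Y-linked transcripts with little *Xist*, and replicates 2, 4 and 5 the reverse, and the sex of the embryos was not given in the labels.

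Among genes with a mean of at least 50 CPM, the 10 smallest CVs lay between 0.876% and 1.37%, below the 1.94% to 3.12% that counting error alone gives for genes of their abundance. They were picked as the lowest among all genes of that abundance, so a value this low describes these 5 libraries and not the stability of the gene. The 10 were *Rab22a*, *Smarcd2*, *Gpr107*, *Phf20*, *Nudcd3*, *Ddx39b*, *Appbp2*, *Nckap1*, *Foxo1* and *Polg*, with *Rab22a*, a GTPase of endosomes, at 78.9, 80, 78.5, 78.5 and 78.3 CPM and *Ddx39b*, an RNA helicase of mRNA export, at 144, 145, 145, 141 and 143 CPM. Of the 16 common reference genes, *Eef1a1* had the smallest CV (3.48%), followed by *Actb* (5.33%), *Hprt* (5.5%) and *Sdha* (5.84%). The largest belonged to *Pgk1* (16%), *B2m* (15.5%), *Polr2a* (15%), *Tfrc* (15%) and *Gapdh* (14.2%). Sequence shared with other genes was not checked for the reference genes, so their levels, that of *Gapdh* included, are uncertain. The glycolysis genes *Gapdh* and *Pgk1* differed in replicate 5. *Gapdh* stood at 48.6, 61, 49.2, 57.6 and 67.7 CPM and was highest in replicate 5, and *Pgk1* stood at 123, 157, 157, 146 and 107 CPM and was lowest there. *Rplp0* stood at 1307, 992, 1347, 1302 and 1144 CPM with its lowest value in replicate 2. The median CV of the 16 was 8.36% at a median level of 163 CPM, beside 6.4% for all genes from 100 to 1000 CPM.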

How the data were processed

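RNA of the AF region of control embryos was isolated with a Zymo kit, and libraries were prepared with a Kapa stranded kit for single reads of 50 bases. The authors deposited 1 table of estimated counts per gene for all 10 libraries, which are partly fractional. The submitters' processing notes name Partek and mm10, and the aligner, the counter and its strand setting were not given in the sources used here. The 5 WT columns were matched to their libraries by title. Estimated counts were rounded, and the 6 rows of the types rRNA and Mt_rRNA were left out, which left 23074 genes. TMM factors over the 5 libraries and a common biological coefficient of variation, from a fit with an intercept alone, were computed with edgeR 4.0.16 in R 4.3.3, and all other values with Python 3.11.15 and pandas 2.3.3. CV is the SD over the 5 libraries divided by the mean CPM, and spread beyond counting is the square root of the squared CV minus 1 over the mean count. The calculation of spread was tested on simulated data. Of 23080 symbols, 22533 were found in the GENCODE M21 annotation, and 22291 of the 23074 genes used had a merged exon length, so ranks per kb leave out the others, such as *Rian*, *Rps7-ps3* and *Prx*. Promoter and miRNA sequences are from RefSeq (GRCm38.p6), where 14180 genes of the table matched a promoter. The RefSeq start lay 0 to 116 bases from the start in the table for the promoters printed.

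No genotypes were compared and no p-values are given. The rule for a library that stands apart used Dixon's ratio as a screen. Members and gene lists were chosen with earlier results of these data known. Genes were named by a rule: the 5 markers, the 20 highest by CPM and by CPM per kb, the 3 most abundant members of each list and transcript class, list members under 1 CPM in every library, the 20 largest spreads at a mean of at least 5 CPM, the 10 smallest CVs at a mean of at least 50 CPM, and the reference genes. *Actn3*, Avp, *Axin2*, *Bglap*, *Bglap2*, *Fgf18*, *Fgfr2*, *Fgfr3*, *Lgr5*, *Meg3*, *Mylpf*, *Myog*, *Notum*, *Pax7*, *Scx*, *Sost*, *Xist* and the genes of the olfactory mucosa fall outside it and were chosen after their values were seen, and some genes that the rule names are not reported here. Hbb-bh1, Ahsp, Dsg3, Cfd, Cidec, Lep and Retn are not in the rows analysed here. The alternatives were library totals alone, size factors of DESeq2 1.42.0, ribosomal RNA rows kept, mitochondrially encoded genes left out, other minimum levels and each library left out in turn.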

Additional observations from a re-analysis of the deposited data

Results flagged for a closer look

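A library stood apart from the other 4 in 27 of 203 results screened (gap to the nearest library over the range, against Dixon's 95% critical value), where chance gives about 1 in 20. Of these, 18 were genes named for their large spread, so the number cannot be set against chance. Replicate 2 was the high one in most. The skeletal muscle sum was 1530 CPM in replicate 2 and at most 319 CPM in the others. By gene, replicate 2 held *Acta1* at 327 CPM, *Myh8* at 263, *Ttn* at 232, *Myh3* at 217, *Actc1* at 107, *Ckm* at 73.1 and *Mylpf* at 63 CPM. It also held *Mybpc1* at 63, *Neb* at 58.4, *Actn2* at 56.1, *Thbs4* at 34.8, *Atp2a1* at 30.1, *Ryr1* at 27.5, *Atp1b4* at 24.4, *Casq2* at 24.2, *Myom2* at 21.5, *Pax7* at 5.35 and *Myog* at 5.16 CPM.

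*Runx2*, the factor that commits cells to the osteoblast lineage, was also apart in replicate 2, at 231 CPM against 179 to 192 CPM in the others, and so was *Nudcd3* at 56.8 CPM, which had 55.3 to 55.6 CPM elsewhere. The spread of *Nudcd3* lay within counting error. Replicate 5 was apart for *Rpl30-ps8* at 35.8 CPM, *Gm28439* at 33.8 CPM and *Gm49450* at 26.9 CPM. Replicate 3 was apart as the lowest library for the growth factor gene *Igf2*, at 6610 CPM against 7309 to 7488 CPM, and as the highest for the epidermal keratin gene *Krt14*, at 0.819 CPM. Replicate 1 was apart for *Meg3*, an imprinted non-coding RNA, at 402 CPM against 330.2 to 347 CPM.

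Data outside the main measurement were also marked: the ribosomal RNA rows, which were left out of all levels, took 26.1% of all counts in the median library.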

How the results depend on the processing

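With ribosomal RNA rows kept, the 10 and the 100 most abundant genes took 42.1% and 53.1% of counts, protein-coding genes 69.2%, pseudogenes 2.33% and collagens 13.1%, since these rows then enter both the total and the most abundant genes. Without the mitochondrially encoded genes, the 100 most abundant genes took 34.7%, protein-coding genes 94.2% and collagens 18.499%. Without *Lars2*, *Mir6236* and *Gm24270*, an alternative added after the data were seen, the 100 most abundant genes took 35.1% and protein-coding genes 94.97%. The median CV of genes was 8.35% at a mean of at least 5 CPM and 17.9% with no minimum, where fewer or more scarce genes enter. The common biological coefficient of variation was 13.4% at a mean of at least 5 CPM. The number of genes with a CV of at least 50% was 128 at a mean of at least 5 CPM and 6036 with no minimum. Leaving out each library in turn gave a median CV between 9.39% (without replicate 5) and 10.1%, and a common coefficient between 14.3% (without replicate 2) and 16.3%. No paired analysis was possible because no groups were compared. With library totals or DESeq2's size factors in place of TMM, the mean of every gene and list described moved by less than 1 SD. With ribosomal RNA rows kept, 108 of 165 gene means and 23 of 28 list sums moved by more, and 406 genes had a CV of at least 50% in place of 514. Without the mitochondrially encoded genes 14 gene means and 3 list sums did, and without *Lars2*, *Mir6236* and *Gm24270* 10 and 2. Without replicate 2 the mean of the skeletal muscle sum was 146 CPM in place of 424 CPM. Depth limited the scarce genes most: from 1 to 10 CPM, counting error alone gives a median CV of 12.1%, so single values there are less certain.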

Other observations

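Promoter letters were counted as a description, with no test. The background here is the 11111 matched promoters of genes with a mean of at least 1 CPM. Of 292 genes with a CV of at least 50% and a matched promoter, 5.48% had TATAAA between 40 and 20 bases before the start, beside 1.20% of the background. TGTGGT on either strand was found in 15.8% of them, beside 10.5%. Of the 100 most abundant nuclear protein-coding genes, 17% had CAGCTG, beside 11.6% of the background, and 6.0% had TGTGGT. Among the epidermis genes, TATAAA stood in that window in 3 of 7 promoters (*Krt10*, *Lor* and *Krtdap*).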
